A study of Mus musculus with 6 samples.

Results

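Platelet-derived growth factor (PDGF) signalling was described through its 4 ligand genes, Pdgfa, Pdgfb, Pdgfc and Pdgfd, and its 2 receptor genes, Pdgfra and Pdgfrb, in cultured colonies of mouse testicular and embryonic gonadal cells and in sorted testicular cells. The members were chosen by gene symbol alone, as the 6 of 19084 named genes on a whole-transcriptome array that carry these symbols. Each had 1 probe, and all 6 passed the filter on dim genes.

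The arrays fell into 3 groups of 2, all from ICR mice. The group labelled GSC colony (GSC is spelled out as glandular stem cell in the labels) came from testicular cells of 80 newborn to P2 mice, grown for 7 days in 5% O2 on laminin at 200 ng/cm2 with EGF at 10 ng/ml, after which colonies were picked. The group labelled PGC colony (primordial germ cells) came from gonadal cells of 67 embryos at E11.5, before the testis and ovary can be told apart by eye, and was cultured in the same way. The CD49f+ sorted group was selected with magnetic beads from the testes of 100 newborn to P2 mice. Selection was by the surface protein CD49f (integrin alpha 6, the product of Itga6). The sorted cells were not cultured, and their labels read physiological hypoxia. The additives named for the culture medium are insulin, transferrin, selenium and EGF. Animals were pooled, the labels name no sex for the embryos, and none tells if the 2 arrays of a group had separate preparations, so a p-value here measures the spread between these arrays alone, and that spread may be technical. Colonies and sorted cells differ in culture, selection and labelled oxygen condition. The PGC colony and GSC colony groups differ in both age and starting organ. In neither case can these factors be told apart.

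PDGFs are secreted as disulphide-linked dimers. PDGF-A and PDGF-B are cut by furin-like proteases inside the cell, whereas PDGF-C and PDGF-D leave it as latent proteins whose CUB domain is removed outside by proteases such as tissue plasminogen activator (PDGF-C) and urokinase or matriptase (PDGF-D). The receptors are class III receptor tyrosine kinases that dimerise on ligand binding. PDGF receptor alpha binds the A, B and C chains, and PDGF receptor beta binds mainly B and D. In the developing testis Pdgfa is a product of Sertoli cells, Pdgfra marks interstitial mesenchyme including precursors of Leydig and peritubular cells, and Pdgfb from endothelium, megakaryocytes and macrophages acts on Pdgfrb of pericytes and other mesenchymal cells.

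RefSeq start-site windows (GRCm38.p6) were found for 4 members, Pdgfa with 2 windows and Pdgfc, Pdgfd and Pdgfra with 1 each. None was found for Pdgfb, and Pdgfrb was not part of this window search. The 250 bases before the start site are shown for 3 genes whose levels took 3 different courses over the groups in the results that follow: Pdgfa was brightest in sorted cells, Pdgfc was brighter in both kinds of colony to a similar degree, and Pdgfra was brightest in GSC colonies. They are printed 5′ to 3′ on the gene's strand, with motif matches in capitals, for Pdgfa at chr5:138994945-138995194 (minus strand), Pdgfc at chr3:81036166-81036415 (plus strand) and Pdgfra at chr5:75152001-75152250 (plus strand).
Pdgfa: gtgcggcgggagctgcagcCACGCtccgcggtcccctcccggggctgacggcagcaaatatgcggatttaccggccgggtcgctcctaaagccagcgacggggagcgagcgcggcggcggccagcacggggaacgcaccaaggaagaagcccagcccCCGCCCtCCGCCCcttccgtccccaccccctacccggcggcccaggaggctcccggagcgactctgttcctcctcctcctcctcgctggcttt
Pdgfc: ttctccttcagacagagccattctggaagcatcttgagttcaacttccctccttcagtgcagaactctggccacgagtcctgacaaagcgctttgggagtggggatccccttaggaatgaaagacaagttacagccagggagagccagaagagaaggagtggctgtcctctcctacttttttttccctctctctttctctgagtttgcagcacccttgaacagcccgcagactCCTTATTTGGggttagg
Pdgfra: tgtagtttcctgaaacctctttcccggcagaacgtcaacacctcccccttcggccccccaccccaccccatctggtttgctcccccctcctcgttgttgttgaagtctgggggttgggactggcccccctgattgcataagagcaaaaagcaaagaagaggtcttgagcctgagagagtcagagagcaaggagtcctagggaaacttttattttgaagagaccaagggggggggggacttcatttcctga

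The Pdgfa window held 72.4% G and C, more than 93.6% of 32851 windows of the same length, and its ratio of observed to expected CpG was 0.87. It held 2 GC boxes (GGGCGG on either strand), a motif present in 32.7% of all windows, and 1 GCGTG core, present in 28.2%. The other Pdgfa window, with 66.4% G and C, also held a GC box. The Pdgfc window held 50.8% G and C and a CArG box, the recognition motif of serum response factor, that began 17 bases before the start site. A CArG box was found in 1.47% of windows. The Pdgfra window held 54.4% G and C with a CpG ratio of 0.22, and none of the searched motifs (on both strands) was in these letters. In the Pdgfd window, with 53.6% G and C, the match was TATAAA, which began 160 bases before the start site. This motif was found in 12.4% of windows, at any position. The motifs searched were the GC box GGGCGG, the CCAAT box, the TATA motif TATAAA, the hypoxia core written ACGTG or, as its other form, GCGTG, the AP-1 motif TGACTCA, the EGR motif GCGGGGGCG, which can overlap a GC box, and the CArG box. A match describes the letters of the window and does not show that a factor binds there.

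The sorted arrays were the dimmest, with median intensities of 393 and 406 as deposited, against 606 and 558 for GSC colonies and 587 and 541 for PGC colonies. After quantile normalization, which gives all arrays the same distribution, 15459 genes were tested with limma, and a gene was called where its p, adjusted by Benjamini-Hochberg, was under 0.05. In GSC colonies against sorted cells 3486 genes were higher and 3793 lower. Without normalization between arrays the median gene moved by 0.47 on the log2 scale and the split became 8179 higher and 1732 lower. In PGC colonies against sorted cells the split was 3517 higher and 3594 lower, and without normalization 7573 higher and 1838 lower, around a median of 0.42. Between the colonies, 1095 genes were higher and 1234 lower in PGC colonies, or 920 and 1405 without normalization. All differences given here are relative to the normalized median, and the comparisons of each colony with sorted cells share the sorted arrays.

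Both receptors were far brighter in the colonies than in sorted cells, Pdgfc and Pdgfd were also brighter there, and Pdgfa and Pdgfb were dimmer. Between the colonies, Pdgfra and Pdgfd were lower in PGC colonies by a factor of about 2.07 and 2.05, and Pdgfrb was 1.49-fold higher. All 6 members passed the threshold in GSC colonies against sorted cells, 4 higher and 2 lower, where 47.1% of all genes tested passed (22.5% higher and 24.5% lower). All 6 passed in PGC colonies against sorted cells, 4 higher and 2 lower, where 46% of genes passed (22.8% higher and 23.2% lower). In PGC colonies against GSC colonies 3 of 6 passed, 1 higher and 2 lower, where 15.1% of genes passed (7.08% higher and 7.98% lower). The median difference of the 6 members was 1.39, 0.92 and 0.06 in these comparisons, in that order, beside -0.01, -0.02 and 0.01 over all genes tested. Against sorted cells the share of genes called was thus high among all genes as well.

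**Figure D1:**
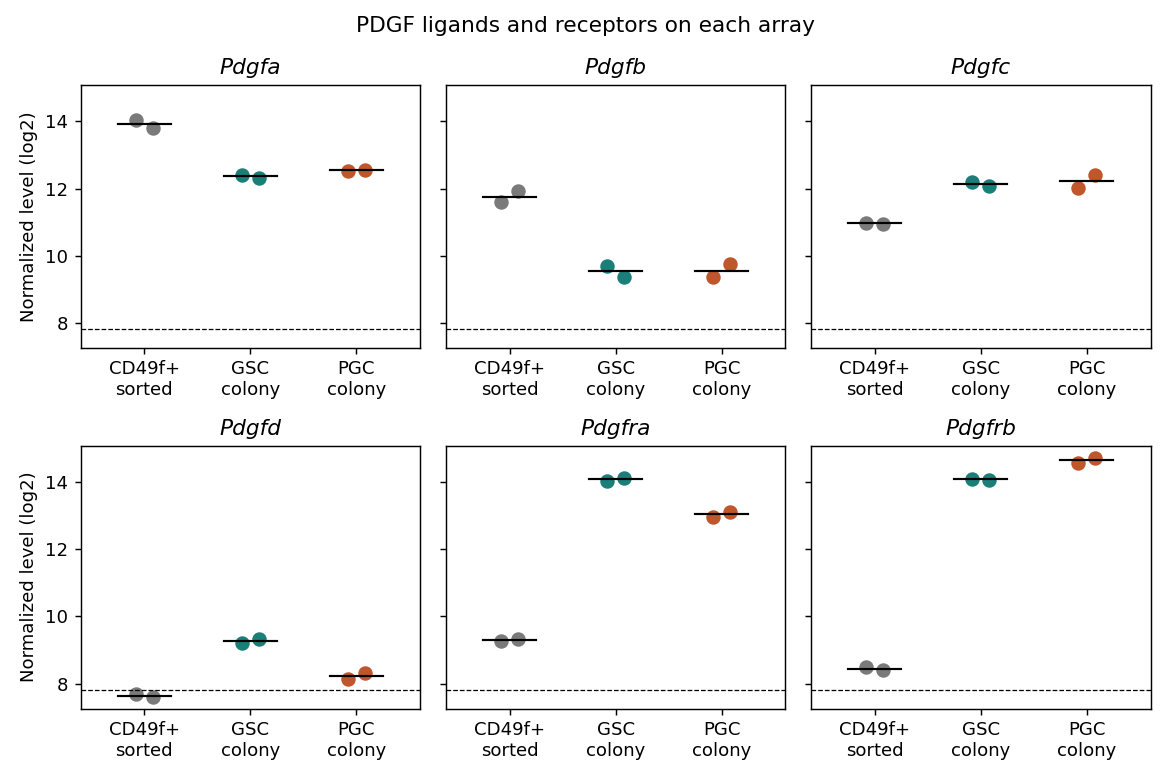
Normalized log2 level of each PDGF ligand and receptor gene on each array (points, 2 per group) with the group mean (short bar), and the level of the dim-gene filter, 7.82, as a dashed line. The receptors rise from 9.30 (Pdgfra) and 8.44 (Pdgfrb) in sorted cells to at least 13.04 in the colonies, Pdgfa and Pdgfb are highest in sorted cells, and Pdgfd lies under the filter line in sorted cells.

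Pdgfrb, the receptor for the B and D chains, showed the largest differences of the family against sorted cells. The deposited intensities, before any background step or scaling, were 237 and 223 in sorted cells, 20652 and 21023 in GSC colonies and 26568 and 30231 in PGC colonies. On the normalized log2 scale these were 8.44 ± 0.07, 14.08 ± 0.01 and 14.65 ± 0.10 (SD, n = 2 each). The 3 groups did not overlap, and their order from dim to bright was sorted cells, GSC colonies and PGC colonies.

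The level of Pdgfrb was 49.6-fold higher in GSC colonies than in sorted cells (95% interval 41.2 to 59.8, log2 difference 5.63 ± 0.11 SE, limma adjusted p = 1.9e-06). It was 74.1-fold higher in PGC colonies than in sorted cells (61.5 to 89.2, 6.21 ± 0.11, limma adjusted p = 3.6e-06). These differences ranked 21 and 4 among the 15459 genes ordered by their rise. Because each array averages over many cells, fewer cells of a type and less RNA per cell cannot be told apart here.

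Pdgfra, the receptor for the A, B and C chains, had another order. Its deposited intensity was 436 and 479 in sorted cells, 8728 and 9905 in PGC colonies and 20050 and 21770 in GSC colonies. The normalized log2 levels were 9.30 ± 0.04, 13.04 ± 0.10 and 14.08 ± 0.06 (SD, n = 2 each). Again no group overlapped another, but here the GSC colonies were the brightest. The difference from sorted cells was 27.5-fold in GSC colonies (22.8 to 33.1, 4.78 ± 0.11 SE, limma adjusted p = 2.2e-06) and 13.3-fold in PGC colonies (11.1 to 16, 3.73 ± 0.11, limma adjusted p = 4.7e-06), ranks 59 and 106 of 15459.

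Between the colonies the 2 receptors moved in opposite directions. Pdgfra was 2.07-fold lower in PGC than in GSC colonies (1.72 to 2.49, -1.05 ± 0.11 SE, limma adjusted p = 0.002), and 5.85% of genes differed by at least as much. Pdgfrb was 1.49-fold higher in PGC colonies (1.24 to 1.8, 0.58 ± 0.11 SE, limma adjusted p = 0.019), and 15.4% of genes differed by at least as much. The Pdgfra call was kept in all 18 other ways of processing or fitting. The Pdgfrb call was lost without GSC colony replicate 1 (adjusted p = 0.085), GSC colony replicate 2 (0.076) or PGC colony replicate 2 (0.059) and without normalization (0.054) or with median centring (0.057) in limma, at differences of 0.44 to 0.58.

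Pdgfa, the A chain and the ligand that acts through the alpha receptor alone, was brightest in sorted cells. Its deposited intensity was 12505 and 10971 there, against 6140 and 6030 in GSC colonies and 6415 and 6670 in PGC colonies. The normalized log2 levels were 13.93 ± 0.18, 12.36 ± 0.05 and 12.54 ± 0.02 (SD, n = 2 each). Both colony groups lay below both sorted arrays, by 2.96-fold in GSC colonies (2.41 to 3.65, log2 difference -1.57 ± 0.12 SE, limma adjusted p = 0.00012) and by 2.61-fold in PGC colonies (2.12 to 3.21, -1.38 ± 0.12, limma adjusted p = 0.00022).

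Without normalization between arrays the Pdgfa differences from sorted cells were -0.94 in GSC colonies and -0.84 in PGC colonies, still past the threshold. The 2 PGC colony arrays were both above the 2 GSC colony arrays for Pdgfa, but the difference of 0.18 ± 0.12 (SE, 95% interval -0.12 to 0.48) did not pass (limma adjusted p = 0.37).

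Pdgfb, the B chain that binds both receptors, followed the same order of groups against sorted cells. Its deposited intensity was 2286 and 3044 in sorted cells, 900 and 678 in GSC colonies and 697 and 866 in PGC colonies. On the log2 scale the levels were 11.75 ± 0.24, 9.53 ± 0.22 and 9.55 ± 0.29 (SD, n = 2 each), with the colony groups overlapping each other and lying well below the sorted arrays. Pdgfb was 4.68-fold lower in GSC colonies (3.35 to 6.54, -2.23 ± 0.20 SE, limma adjusted p = 0.00021) and 4.6-fold lower in PGC colonies (3.29 to 6.42, -2.20 ± 0.20, limma adjusted p = 0.00023) than in sorted cells. Its difference between the colonies was 0.03 ± 0.20 (SE), with an interval from -0.46 to 0.51 that leaves room for a change of up to 1.42-fold.

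Pdgfc, the latent ligand activated by tissue plasminogen activator, was higher in the colonies. Its deposited intensity was 1499 and 1522 in sorted cells, 5251 and 5019 in GSC colonies and 4576 and 6008 in PGC colonies. The log2 levels were 10.96 ± 0.03, 12.13 ± 0.07 and 12.21 ± 0.26 (SD, n = 2 each). The PGC colony arrays lay on either side of the GSC colony arrays, and all 4 colony arrays were above the sorted ones. Pdgfc was 2.24-fold higher in GSC colonies (1.75 to 2.88, 1.16 ± 0.15 SE, limma adjusted p = 0.001) and 2.38-fold higher in PGC colonies (1.85 to 3.05, 1.25 ± 0.15, limma adjusted p = 0.00076) than in sorted cells. Between the colonies it differed by 0.09 ± 0.15 (SE, interval -0.27 to 0.44), which did not pass.

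Pdgfd, the latent ligand of the beta receptor, had deposited intensities of 115 and 102 in sorted cells. It measured 636 and 653 in GSC colonies and 288 and 280 in PGC colonies. The log2 levels were 7.64 ± 0.05, 9.26 ± 0.09 and 8.23 ± 0.11 (SD, n = 2 each), the 3 groups did not overlap, and both sorted arrays were under the filter level, so the folds against them are lower bounds. In GSC colonies Pdgfd was higher by at least 2.72-fold (1.62 ± 0.12 SE, limma adjusted p = 8.2e-05), and in PGC colonies by at least 1.33-fold (0.59 ± 0.12, limma adjusted p = 0.0069). The call in PGC colonies was lost without sorted replicate 2 (0.56, limma adjusted p = 0.052). Pdgfd was 2.05-fold lower in PGC than in GSC colonies (1.68 to 2.49, -1.03 ± 0.12 SE, limma adjusted p = 0.0025).

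**Figure D2:**
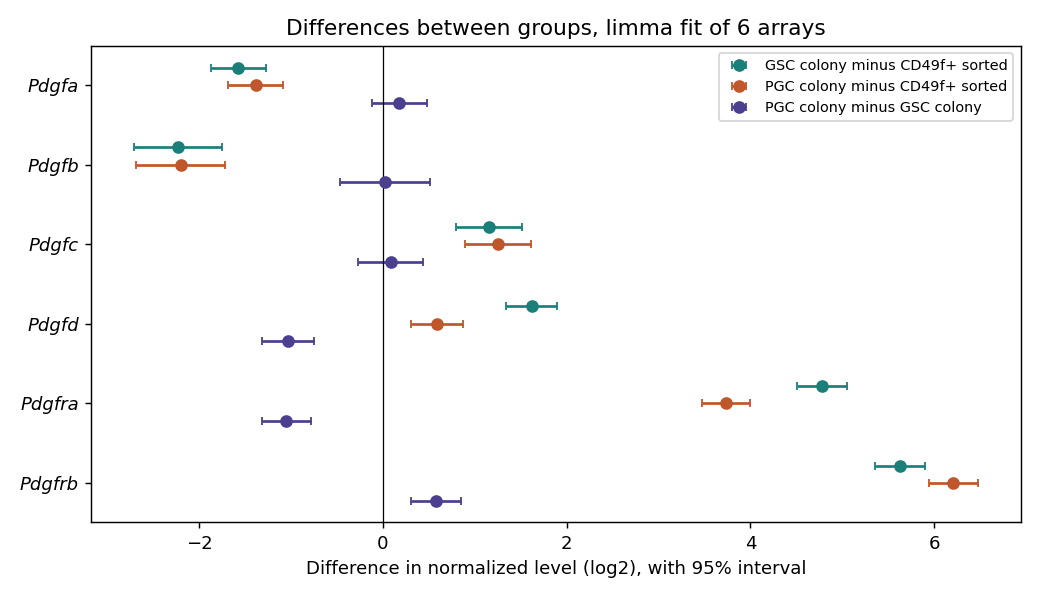
Difference in normalized log2 level of each PDGF ligand and receptor gene for the 3 pairs of groups, with 95% intervals from the limma fit of 6 arrays; points right of 0 are higher in the group named first. Pdgfrb reaches 5.63 and 6.21 and Pdgfra 4.78 and 3.73 against sorted cells, Pdgfa and Pdgfb lie left of 0 there, and between the colonies the receptors lie on opposite sides of 0.

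Markers of other cell types moved with these differences. The marker counts given from here on stand beside these shares of all genes tested. Against sorted cells 22.5% were higher and 24.5% lower in GSC colonies, and 22.8% and 23.2% in PGC colonies. In PGC against GSC colonies 7.08% were higher and 7.98% lower. Fibroblast and mesenchyme markers, the class of cells in which both receptors are usually found, summed to normalized intensities of 523398 to 535491 in GSC colonies, 284425 to 291408 in PGC colonies and 23456 to 26296 in sorted cells, over 12 genes. Of 10 tested, 10 were higher in GSC colonies than in sorted cells, 8 were higher and 1 (Dpt) lower in PGC colonies than in sorted cells, and 7 were lower in PGC than in GSC colonies. Col1a1 and Fbln1 were under the filter in all 3 groups. Col1a2, whose product joins that of Col1a1 in collagen I, was at 14.92, 14.63 and 10.50 in GSC colonies, PGC colonies and sorted cells, so the Col1a1 probe may not report its gene. Peritubular myoid and smooth muscle markers summed to 86999 to 87723 in GSC colonies, 41012 to 43129 in PGC colonies and 10608 to 11066 in sorted cells. All 5 tested were higher in GSC colonies than in sorted cells and all 5 were lower in PGC than in GSC colonies, while 3 were higher and 2 lower in PGC colonies than in sorted cells. Their order over the groups was that of Pdgfra and Pdgfd.

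Pericyte markers, the genes of vessel wall cells in which Pdgfrb is usually found, summed to 24123 to 24154 in GSC colonies, 17673 to 18806 in sorted cells and 29649 to 32120 in PGC colonies. Their mean log2 level overlapped between GSC colonies (11.02 to 11.12) and PGC colonies (11.08 to 11.26) and was lower in sorted cells (10.17 to 10.28). Of 6 tested, 3 were higher and 1 lower in each colony group than in sorted cells, and 2 were higher and 1 (Kcnj8) lower in PGC than in GSC colonies. Against sorted cells 47.1% of all genes tested passed in GSC colonies and 46% in PGC colonies, and 15.1% passed between the colonies. Rgs5, a defining pericyte gene, was under the filter in every group. Leydig and steroidogenic markers summed to 77602 to 81031 in sorted cells, 23701 to 24504 in GSC colonies and 21619 to 21743 in PGC colonies. Of 5 tested, 1 was higher (Star, 0.35) and 3 lower in GSC colonies, 0 were higher and 3 lower in PGC colonies than in sorted cells, and 0 were higher and 2 lower in PGC than in GSC colonies. The part of any of these cells in the receptor differences was not tested.

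Markers of Sertoli cells, endothelium and macrophages, which are among the usual sources of PDGF-A and PDGF-B, were mostly brighter in sorted cells. Sertoli markers summed to 593442 to 608733 in sorted cells, 250122 to 255991 in GSC colonies and 199388 to 226384 in PGC colonies. Of 9 tested, 8 were lower in GSC colonies and 9 in PGC colonies than in sorted cells, and Amh, the anti-Müllerian hormone gene, was under the filter on both GSC colony arrays and 1 of 2 PGC colony arrays. Endothelial markers summed to 56902 to 58715 in sorted cells, 18815 to 19878 in GSC colonies and 8589 to 8771 in PGC colonies. Of 9 tested, 8 were lower and 1 (Emcn, 1.26) higher in GSC colonies than in sorted cells. All 9 were lower in PGC colonies than in sorted cells. Emcn was the brightest of them in GSC colonies, at 13.60.

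Macrophage and leukocyte markers summed to 99386 to 104641 in sorted cells, 3104 to 3322 in GSC colonies and 6790 to 7046 in PGC colonies. All 8 tested were lower in each kind of colony than in sorted cells, and C1qb and Adgre1 were under the filter in GSC colonies. Megakaryocyte and platelet markers summed to 17234 to 17244 in sorted cells and at most 5986 in the colonies, but that sum followed Pf4 (13.71 in sorted cells, under the filter in both kinds of colony). Of 5 tested, 2 were higher (Gp1bb and Itgb3) and 2 lower (Pf4 and Ppbp) against sorted cells in each colony group, and Itga2b was under the filter in every group. All 3 erythroid genes tested were lower in both kinds of colony. The part of these cells in the levels of Pdgfa and Pdgfb was not tested.

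The labelled germ cell identity was checked as well. Germ cell markers summed to 8483 to 9698 in GSC colonies, 7060 to 7958 in sorted cells and 5973 to 6455 in PGC colonies. Of 9 tested, 5 were higher and 2 lower in GSC colonies than in sorted cells, 4 were lower in PGC colonies than in sorted cells, and 5 were lower in PGC than in GSC colonies. Of all genes tested, 22.5% were higher and 24.5% lower in GSC colonies than in sorted cells. In PGC colonies 23.2% were lower than in sorted cells and 7.98% lower than in GSC colonies. Ddx4, a germ cell RNA helicase gene, was at 10.25 ± 0.02, 9.99 ± 0.15 and 9.84 ± 0.17 (log2, SD, n = 2 each) in GSC colonies, sorted cells and PGC colonies. Dppa3 was under the filter in every group, Zbtb16 in sorted cells and PGC colonies, and Dazl in PGC colonies. Itga6, the sorting antigen, was at 12.18 ± 0.11 in sorted cells, 11.81 ± 0.07 in GSC colonies and 12.39 ± 0.07 in PGC colonies. It was lower in GSC colonies than in sorted cells (-0.37 ± 0.12 SE, limma adjusted p = 0.042). By group mean alone it was highest in PGC colonies, with arrays at 12.34 and 12.44 against 12.26 and 12.10 in sorted cells.

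**Figure D3:**
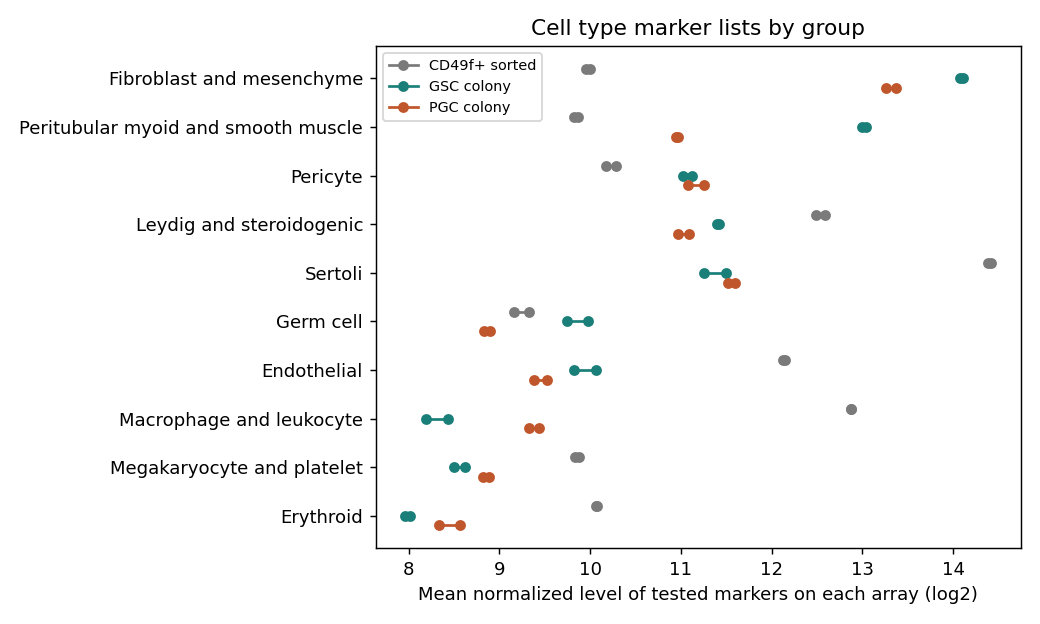
Mean normalized log2 level of the tested markers of each cell type list on each array, with 2 points per group. Fibroblast and myoid lists are brightest in GSC colonies. Sertoli, endothelial, macrophage, Leydig, megakaryocyte and erythroid lists are brightest in sorted cells, where Pdgfa and Pdgfb are also brightest. Within the megakaryocyte list only Pf4 and Ppbp passed as brighter in sorted cells, and Gp1bb and Itgb3 were brighter in the colonies.

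The proteases, binding proteins and co-receptors of the family were mostly higher in the colonies. Of 15 genes tested, 9 were higher and 1 lower in GSC colonies than in sorted cells (median 1.42), 9 higher and 1 lower in PGC colonies than in sorted cells (median 0.83), and 3 higher and 6 lower in PGC than in GSC colonies (median -0.23). The medians over all genes were -0.01, -0.02 and 0.01. Of all genes tested, 22.5%, 22.8% and 7.08% were higher and 24.5%, 23.2% and 7.98% lower, in the same order of comparisons.

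Plat, which encodes the tissue plasminogen activator that releases active PDGF-C, was at 14.22 and 14.01 in GSC colonies, 12.54 and 12.47 in sorted cells and 13.27 and 13.16 in PGC colonies (normalized log2). The groups did not overlap. Plat was 3.05-fold higher in GSC colonies (1.61 ± 0.12 SE, limma adjusted p = 0.0001) and 1.63-fold higher in PGC colonies than in sorted cells (0.71 ± 0.12, limma adjusted p = 0.0038), and 1.87-fold lower in PGC than in GSC colonies (limma adjusted p = 0.005). Plau, the urokinase gene whose product can activate PDGF-D, differed from sorted cells by -0.53 in GSC colonies (limma adjusted p = 0.051) and was lower in PGC colonies (-0.78, limma adjusted p = 0.013). That call did not hold without normalization or without sorted replicate 2. Its receptor gene Plaur was 2.67-fold higher in GSC colonies and 4.75-fold higher in PGC colonies, and 1.78-fold higher in PGC than in GSC colonies. St14, the matriptase gene, was higher in PGC colonies than in sorted cells (0.91, a call lost without sorted replicate 1) and differed by 0.32 in GSC colonies, which did not pass.

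Among the furin-like convertases that cut the A and B chains, Furin itself differed by 0.02, -0.15 and -0.13 in GSC against sorted, PGC against GSC and PGC against sorted, and Pcsk7 by 0.20, 0.03 and 0.23, none of which passed. Pcsk6 (PACE4) was lower in GSC colonies than in sorted cells (-1.32) and higher in PGC than in GSC colonies (1.34), with 0.02 between PGC colonies and sorted cells. Pcsk5 was higher in GSC colonies (0.84) and PGC colonies (0.83) than in sorted cells by its brightest probe, calls lost without sorted replicate 2. The mean of its 3 probes gave 0.14 and 0.13, which did not pass, and its other probes did not pass the filter on dim genes.

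Of the proteins that bind PDGFs or their receptors, Thbs1 differed most in GSC colonies against sorted cells and between the colonies. Thbs1 encodes thrombospondin 1, a matrix glycoprotein, and was at 13.15 and 13.25 in GSC colonies, 9.93 and 9.89 in sorted cells and 10.70 and 10.78 in PGC colonies. It was 9.78-fold higher in GSC colonies than in sorted cells (3.29 ± 0.11 SE, limma adjusted p = 4.1e-06), 1.78-fold higher in PGC colonies (0.83 ± 0.11, limma adjusted p = 0.001) and 5.48-fold lower in PGC than in GSC colonies (-2.46 ± 0.11, limma adjusted p = 7.3e-05).

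Pdgfrl, a receptor-like gene whose product lacks a kinase domain, was at 13.00 and 13.20 in GSC colonies, 9.99 and 10.10 in sorted cells and 11.66 and 11.20 in PGC colonies. It was 8.31-fold and 2.61-fold higher in GSC and PGC colonies than in sorted cells and 3.19-fold lower in PGC than in GSC colonies. A2m, which encodes the plasma protease inhibitor alpha-2-macroglobulin that also binds PDGF, was brightest in GSC colonies, by at least 2.61-fold over sorted cells and at least 2.62-fold over PGC colonies, both of which were under the filter level. The order of Thbs1 and Pdgfrl over the groups was that of Pdgfra.

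Cspg4 encodes NG2, a proteoglycan of pericytes that binds PDGF-AA and is also in the pericyte list here. It was 6.38-fold higher in GSC colonies (2.67 ± 0.11 SE) and 9.26-fold higher in PGC colonies (3.21 ± 0.11) than in sorted cells. Its higher level in PGC than in GSC colonies (0.54, limma adjusted p = 0.023) was lost in 9 of 18 alternatives, and a fainter probe gave 0.49 (limma adjusted p = 0.14). Lrp1, an endocytic co-receptor of PDGF receptor beta, was 4.15-fold and 2.86-fold higher, and Nrp1, a co-receptor that binds PDGFs and VEGFs, 3.54-fold and 2.41-fold higher in GSC and PGC colonies than in sorted cells. Between the colonies Lrp1 was lower by 0.53 and Nrp1 by 0.56 in PGC colonies, calls lost in 7 and 4 of 18 alternatives, and for Nrp1 a fainter probe gave -0.06 (limma adjusted p = 0.8). Sparc, a matrix protein that binds the B chain, differed by 0.18, -0.23 and -0.05, none of which passed.

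**Figure D4:**
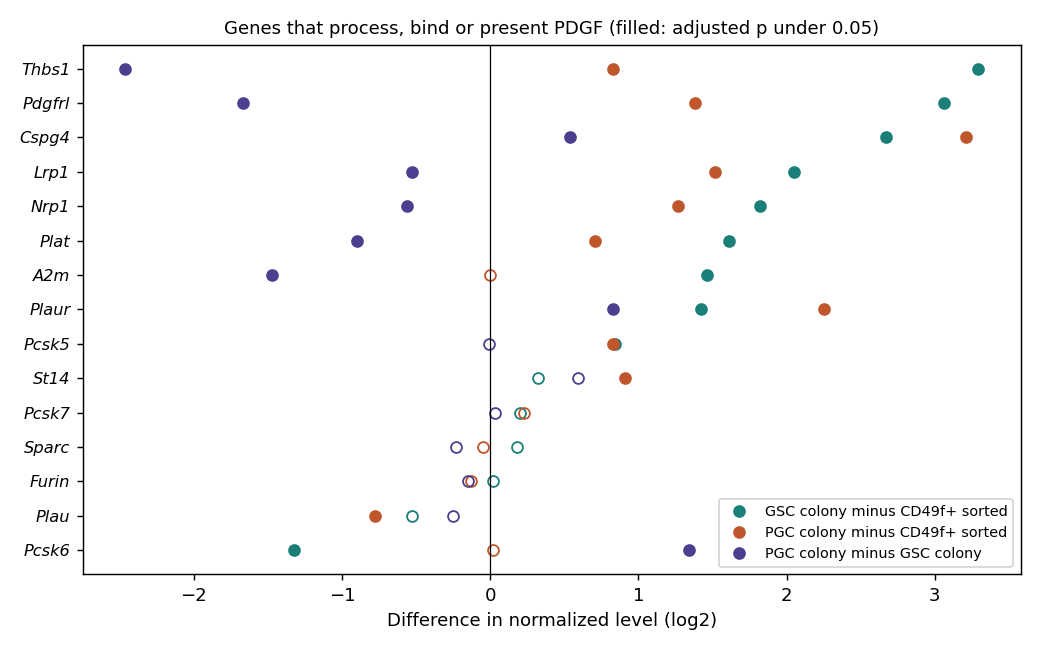
Difference in normalized log2 level of the 15 measured processing, binding and co-receptor genes for the 3 pairs of groups; filled points passed the threshold and open points did not. Thbs1, Pdgfrl and Cspg4 lie farthest right against sorted cells in GSC colonies, at 3.29, 3.06 and 2.67, and Thbs1 lies farthest left between the colonies, at -2.46.

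The listed signal transducers of the receptors moved in both directions. Of 32 listed genes 24 were tested. In GSC colonies against sorted cells 9 were higher and 9 lower (median -0.07), beside 22.5% and 24.5% of all genes tested. In PGC colonies against sorted cells 9 were higher and 8 lower (median 0.10), beside 22.8% and 23.2% of all genes. In PGC against GSC colonies 1 was higher and 1 lower (median 0.05), beside 7.08% and 7.98%. Stat3, a transcription factor activated by many cytokine and growth factor receptors, was 5.13-fold higher in GSC colonies, 2.71-fold higher in PGC colonies and 1.89-fold lower in PGC than in GSC colonies. Shc1, an adaptor that links receptors to Ras, was 4.51-fold and 4.33-fold higher in GSC and PGC colonies than in sorted cells.

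Src, a cytoplasmic tyrosine kinase, was 3.12-fold and 2.89-fold lower than in sorted cells. Crkl, an adaptor, was lower in GSC colonies by 0.95 and Pik3cb, a catalytic subunit of PI 3-kinase, lower in PGC colonies by 0.77, and both calls were lost without normalization between arrays. That setting also left 1 transducer lower against sorted cells in each kind of colony. Nck2, an adaptor, was higher in PGC than in GSC colonies (0.64), a call lost in 5 of 18 alternatives.

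Negative regulators of the receptors also moved both ways. The list includes inhibitors of EGF receptor family kinases, Ras signalling and ERK, so it is not specific to PDGF receptors. Of 16 tested, 6 were higher and 4 lower in GSC colonies than in sorted cells (median 0.01), beside 22.5% and 24.5% of all genes. In PGC colonies against sorted cells 6 were higher and 1 lower (median 0.11), beside 22.8% and 23.2% of all genes. In PGC against GSC colonies 5 were higher and 3 lower (median 0.13), beside 7.08% and 7.98%. Errfi1, a feedback inhibitor of EGF receptor family kinases, was 5.22-fold higher in GSC colonies than in sorted cells and 2.75-fold lower in PGC than in GSC colonies. Spry1, a Sprouty feedback inhibitor, was 3.06-fold and 2.5-fold higher in GSC and PGC colonies than in sorted cells.

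Dusp6, a phosphatase of ERK, was 2.72-fold lower in GSC colonies than in sorted cells and 2.26-fold higher in PGC than in GSC colonies. Dusp1, a phosphatase of MAP kinases, was 2.97-fold and 4.77-fold lower than in sorted cells in GSC and PGC colonies. It was also lower in PGC than in GSC colonies (-0.69), and Spred1, an inhibitor of Ras signalling, was higher there (0.68), calls lost in 3 and 2 of 18 alternatives. Rasa1, the Ras GTPase activating protein that docks on PDGF receptor beta, was higher in PGC colonies than in sorted cells by 1.11.

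Genes known to be induced by PDGF in cultured fibroblasts were more often lower than higher in the colonies. Of 19 tested, 6 were higher and 11 lower in GSC colonies than in sorted cells (median -0.65) and 4 higher and 9 lower in PGC colonies than in sorted cells (median -0.45), beside all-gene medians of -0.01 and -0.02. Without normalization between arrays these counts were 7 and 7 in GSC colonies and 6 and 8 in PGC colonies. Between the colonies 3 were higher and 2 lower in PGC colonies (median 0.12). Of all genes tested, 22.5%, 22.8% and 7.08% were higher and 24.5%, 23.2% and 7.98% lower, in the same order of comparisons. Many of the listed genes respond to serum, to other growth factors and to tissue dissociation too, so the list is not specific to PDGF.

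Ptgs2, which encodes cyclooxygenase 2, was at 13.06 and 13.20 in GSC colonies, 9.14 and 8.86 in sorted cells and 12.93 and 12.23 in PGC colonies, 17.5-fold and 11.9-fold above sorted cells. Has2, a hyaluronan synthase gene, was higher by at least 3.64-fold in GSC and at least 5.45-fold in PGC colonies, with sorted cells under the filter level. Fosb, an AP-1 subunit gene of the immediate early class, went the other way, at 12.43 and 12.39 in GSC colonies, 15.77 and 15.07 in sorted cells and 12.21 and 11.75 in PGC colonies. It was 8.06-fold and 10.9-fold lower than in sorted cells.

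Ccl7, a monocyte chemokine gene, was 4.66-fold and 4.21-fold lower than in sorted cells in GSC and PGC colonies. Between the colonies, Egr2, a zinc finger transcription factor gene, and Cxcl1, a neutrophil chemokine gene, were 2.02-fold and 2.01-fold higher in PGC colonies. Csrnp1, a nuclear protein gene, was lower there by 0.93, and Fosl1, another AP-1 gene, by 0.47, a call at a limma adjusted p of 0.049 that was lost in 10 of 18 alternatives.

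**Figure D5:**
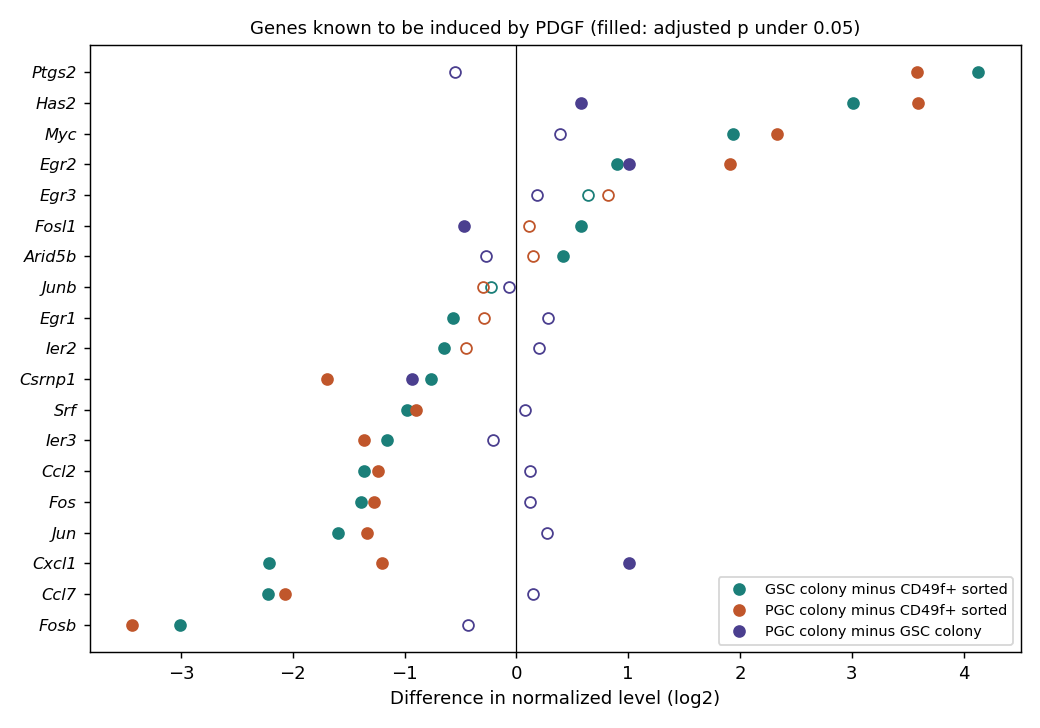
Difference in normalized log2 level of 19 genes known to be induced by PDGF in fibroblasts, for the 3 pairs of groups; filled points passed the threshold. Ptgs2 and Has2 lie farthest right and Fosb farthest left against sorted cells, and against sorted cells more points lie left of 0 than right.

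Profiles like those of the members were sought among all genes tested, by the root mean square difference of log2 values over the 6 arrays after centring each gene. These 6 arrays are 3 pairs, so 3 group means set most of each profile, and Pearson r for the genes named here, between 0.994 and 0.999, describes that. The nearest to Pdgfra were Tmem45a (0.131), Cryab (0.151) and Cyp1b1 (0.169). The nearest to Pdgfrb were Ccn4 (0.148), Fibin (0.166) and Col6a3 (0.185), the last a collagen VI chain gene.

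The nearest to the ligands were Dpysl2 (0.0284), Cutal (0.0541) and Tab1 (0.0643) for Pdgfa, and Prkd1 (0.0873), Lpin2 (0.093) and Septin4 (0.115) for Pdgfb. For Pdgfc they were Map1lc3a (0.0446), Slc40a1 (0.049) and Rnf227 (0.0625), and for Pdgfd Pcdhb9 (0.0232), Cdc42ep2 (0.0562) and Nucb2 (0.0749). When genes were ranked by Pearson r instead, 1 of the 3 nearest genes was shared for Pdgfa and for Pdgfd and none for the other members, so the names depend on the measure.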

How the data were processed

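RNA was measured on 6 single-colour mouse oligonucleotide arrays (Cy5), 2 for each of 3 groups, from 1 µg of total RNA that was amplified, per the labels. The values are linear intensities as deposited by the authors, some of them below 0. For the scanner, its software and any background correction or scaling before deposit, the answer is: not given in the sources used here. The number of arrays limits the precision. Of 26423 probes, 21876 had 1 gene symbol in GEO's platform annotation, 0 had several and 4547 had none.

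Values were corrected with normexp (offset 50), put on the log2 scale and quantile normalized with limma 3.58.1 in R 4.3.3. The brightest probe stood for a gene (2424 genes had several), and genes at or above the 30th percentile of an array (7.82 in log2) on at least 2 of 6 arrays were tested. One limma fit of 3 group means with eBayes (3 residual degrees of freedom, 6.24 with the shared estimate) gave differences, 95% intervals and p-values, adjusted over 15459 genes. The fit was tested on simulated data with independent errors and few changed genes. Many genes were called in the real arrays, so that run does not vouch for the p-values here. Where both arrays of the dimmer group were under the percentile, the fold was computed against that level as a lower bound.

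The members and lists were chosen with earlier results of these data known. Named genes were all members, all measured processing, binding and co-receptor genes, the 2 largest rises and falls past the threshold per other pathway list and comparison, the 3 nearest profiles per member, and markers needed for the label check. Alternatives changed the normalization, background correction, offset, filter, probe rule, samples fitted, replicate block and variance model, and left out each array. Promoter windows came from RefSeq and were matched by symbol.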

Additional observations from a re-analysis of the deposited data

How the results depend on the processing

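Of the members' differences, 318 stayed on the same side of the threshold under the alternatives and 6 lost the call. Pdgfrb in PGC against GSC colonies lost it at 0.44 without normalization, 0.47 with median centring and with 3 of the arrays left out, where the range over all arrays was 0.51 to 0.65. Pdgfd in PGC colonies against sorted cells lost it without sorted replicate 2 (0.56, in a range of 0.51 to 0.66 over all arrays). Between the colonies, where neither passed, Pdgfb ran from -0.18 to 0.23 and Pdgfc from -0.10 to 0.27. Genes called between the colonies numbered 1445 to 2039 with an array left out, lowest without GSC colony replicate 1 (1445) and PGC colony replicate 2 (1527). Without normalization between arrays the median gene rose by 0.47 and 0.42 against sorted cells, and these differences turned positive: in GSC colonies Egr1 0.17, Ier2 0.10, Junb 0.47, Nck2 0.13, Nras 0.32, Ptpn1 0.50, Ptpn2 0.12 and Spry4 0.44, and in PGC colonies A2m 0.34, Cblb 0.47, Furin 0.38, Grb2 0.40, Ptpn2 0.50, Ptprj 0.38 and Sparc 0.49. With the mean of probes Pik3ca became -0.21 and -0.35 against sorted cells in GSC and PGC colonies. Its brightest probe gave 0.39 and 0.41 there and a fainter probe -0.80 and -1.11. Why the probes disagree was not tested.

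List counts moved too. Without normalization, processing genes higher in PGC colonies than in sorted cells went from 9 to 14 and negative regulators higher in GSC and PGC colonies from 6 to 10 and 11. With an array left out, the number of transducers lower in GSC colonies than in sorted cells went above and below that with all arrays. So did the number of negative regulators lower between the colonies. Transducers lower in PGC colonies than in sorted cells fell in number or stayed the same. Between the colonies fewer processing genes were lower and fewer negative regulators higher, whichever array was left out.

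Whether replicate numbers pair the samples could not be told. The deviations of same-numbered arrays correlated at -0.342 between GSC colonies and sorted cells and -0.179 between GSC and PGC colonies. Between sorted cells and PGC colonies they correlated at 0.326. With a replicate block 6, 3 and 6 members were called and 6804, 1707 and 6637 genes, in GSC against sorted, PGC against GSC and PGC against sorted. With the GSC colony numbers crossed, an alternative chosen after seeing the data, these were 7831, 2703 and 7672 genes. With 2 arrays a group the fits cannot resolve small differences, and probes near background give lower bounds.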

Other observations

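Ligands and receptors related to the PDGF family, the VEGFs and the other class III receptors with their ligands, also differed between colonies and sorted cells. Of 15 measured genes (Vegfd was counted once, under its current name), 8 were higher and 5 lower in each kind of colony than in sorted cells. The medians were 1.11 in GSC and 1.16 in PGC colonies. In PGC against GSC colonies 3 were higher and 1 lower (median 0.07). Of all genes tested, 22.5%, 22.8% and 7.08% were higher and 24.5%, 23.2% and 7.98% lower, in the same order of comparisons. Pgf, the placental growth factor gene, was 13.1-fold higher in GSC colonies and 10.5-fold higher in PGC colonies (limma adjusted p = 3.4e-06 and 5.9e-06). Vegfa, an endothelial mitogen gene induced by hypoxia, was 6.21-fold and 7.86-fold higher. For Vegfd, a lymphatic growth factor gene, sorted cells were under the filter level, GSC colonies were higher by at least 9.02-fold and PGC colonies by at least 2.73-fold, and it fell by 1.72 on the log2 scale from GSC to PGC colonies.

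Csf1r, the macrophage colony stimulating factor receptor and a class III relative of the PDGF receptors, changed in the opposite direction from them. It was at 13.72 and 13.69 in sorted cells, 8.00 and 8.10 in GSC colonies and 8.66 and 8.56 in PGC colonies, 50.3-fold and 34.2-fold lower in the colonies (limma adjusted p = 1.9e-06 and 3.9e-06). Its higher level in PGC than in GSC colonies (0.56) was lost in 6 of 18 alternatives. Kdr, a VEGF receptor gene of endothelium, was lower by 1.83 and 1.70 in log2. Csf1r is also in the macrophage list and Kdr in the endothelial list, where 8 of 8 and 8 of 9 markers were lower in GSC colonies. The other endothelial marker, Emcn, was higher there. Vegfc, another lymphatic growth factor gene, and Flt3l, the FLT3 ligand gene, were higher in PGC than in GSC colonies by 0.93 and 0.88.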
